A study of Mus musculus with 6 samples.

Results

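The interleukin 6 family and its signalling chain were read through 10 genes in inflamed colon of mice with and without Pparg in myeloid cells. They are the ligands Il6, Il11, Lif and Osm, the receptors Il6st (gp130), Osmr, Il6ra and Il11ra1, the transcription factor Stat3 and its feedback inhibitor Socs3. The genes were chosen by name, and each was read from all probe sets that the platform annotation gives to that gene alone. This gave 21 of the 34958 single-gene probe sets on the array and covered 9 of the 10 genes. On GRCm38.p6, Lif, Osm, Stat3 and Socs3 lie on chromosome 11, where Osm (chr11:4236785-4241026) and Lif (chr11:4257568-4272514) are close together, and the other 6 lie on separate chromosomes. For Il11ra1 the annotation used here lists no probe set, so it is named only. In each gene the probe set with the highest mean over the 6 arrays leads. The test took probe sets with 3 or more of the 6 arrays above log2 4. Of the 21, 13 met this, so that 7 of the 10 genes were among the 10491 tested. Lif and Osm did not pass and are given by their values and by a fit without the filter.

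Cytokines of this family bind a receptor of their own and then share gp130, the signal-transducing chain. Kinases of the JAK family on gp130 phosphorylate STAT3, which enters the nucleus and switches on genes for survival, proliferation and the acute phase. One of these genes is Socs3, whose protein binds gp130 and the kinases and ends the signal. In the gut, myeloid and stromal cells make the ligands, and epithelial and stromal cells respond to them during injury and repair.

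The deficient group held 3 C57BL/6 mice with PPAR g fl/fl alleles that were also Lysozyme M cre+, in which Cre under the lysozyme M promoter deletes Pparg in macrophages and neutrophils. The control group held 3 littermates, again PPAR g fl/fl but Lysozyme M cre-, so that floxed Pparg is common to all 6 mice. All 6 mice, described as 6 to 8 weeks old, drank 2.5% dextran sodium sulfate (DSS), which injures the colonic epithelium, and were killed on day 7. No array came from a mouse without DSS, so every difference is between genotypes within colitis. Whole-colon RNA of each mouse went on 1 Affymetrix array, and every value below is a log2 expression level made with GCRMA, whose lowest value is 2.25. In whole tissue, a difference in the number of cells of a type and a difference in RNA per cell cannot be told apart.

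The tissue profile of the arrays bears on all values. Deficient replicate 3 and control replicate 1 carried small intestine genes, and some colon genes were low there. Apoa1, an apolipoprotein of small intestine enterocytes, was at 15.23 and 15.46 there and at 3.82 to 7.38 on the other 4 arrays. Car1, a carbonic anhydrase of colonocytes, was at 7.02 and 2.83 on the same arrays, against 13.60 to 15.32 elsewhere. The colon genes Aqp8 and Hoxa10 were likewise under log2 4 on both, but Slc26a3, at 10.32 and 11.05, and Ceacam1, at 14.22 and 13.55, were near their other levels. The differences of the family genes are therefore also given over the 4 other arrays, called here those with a colon profile, and between these 2, where 1 mouse a group allows no test. Pparg itself was at 8.77, 8.23 and 4.15 in deficient samples and at 5.28, 9.91 and 9.54 in control samples. Its groups overlapped, and the 2 arrays with small intestine genes held its lowest values. Colon epithelium, outside the cells that this Cre targets, also expresses Pparg. The part of either in the overlap was not tested. Lyz2, the lysozyme M gene, was at 6.80, 6.24 and 10.39 in deficient samples and at 12.32, 11.79 and 12.19 in control samples, and Cre sits at this locus. Xist, the RNA of the inactive X chromosome in females, was above log2 4 on control replicate 2 alone.

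The clearest feature of the ligands was that Il6 and Il11 were high on 2 of the 3 deficient arrays and at or near the floor on most others. Il6, the founding cytokine of the family, read 7.87, 11.63 and 2.25 in deficient samples 1, 2 and 3, against 2.25, 2.25 and 4.28 in control samples. Deficient replicate 3 lay with the lowest control arrays, so the groups overlapped. The means were 7.25 ± 4.72 in deficient and 2.92 ± 1.18 in control samples (SD, n = 3 each), which differ by 4.33 on the log2 scale (SE 2.33). The limma test with Benjamini-Hochberg adjustment over all genes did not call it (adjusted p 0.714). With values under log2 4 set to 4, the difference was 3.74.

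Il11, a cytokine that injured stroma secretes, followed the same order at its top. It read 7.17, 9.83 and 2.55 in deficient samples and 2.72, 2.72 and 4.15 in control samples. Again deficient replicates 1 and 2 stood above all controls, and deficient replicate 3 was, like control replicates 1 and 2, under log2 4. The difference was 3.32 (SE 1.81, limma adjusted p 0.715), or 2.95 with values under log2 4 set to 4. Both genes passed the filter through deficient replicates 1 and 2 and control replicate 3 alone. Over the 4 arrays with a colon profile, Il6 differed by 6.49 and Il11 by 5.07, with limma adjusted p of 0.285 and 0.271. On the other 2 arrays both genes were under log2 4, so the differences there, 0.0050 for Il6 and -0.17 for Il11, were set by the floor and are no measure of a genotype difference. Without deficient replicate 2, the Il6 difference was 2.13 and that of Il11 was 1.67, and without deficient replicate 3 they were 6.83 and 5.31.

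Lif and Osm were low in all but 1 sample. Lif, a cytokine that signals through gp130 paired with the Lif receptor, read 3.15, 6.30 and 3.01 in deficient samples on its leading probe set, against 2.44, 2.53 and 2.66 in control samples. Its second probe set lay at 2.25 to 2.30 on all 6 arrays. Osm, oncostatin M, a product of activated myeloid cells, read 3.38, 4.56 and 3.32 in deficient samples, against 2.46, 3.17 and 3.17 in control samples. For both, each deficient value exceeded each control value, but all except those of deficient replicate 2 were under log2 4. Among the tested genes, which do not include Lif and Osm, 9.36% had every deficient value above every control value. The share without the filter was not computed. The fit without a filter gave differences of 1.61 for Lif and 0.81 for Osm, each with a limma adjusted p of 0.847. With values under log2 4 set to 4 these were 0.77 and 0.19. Over the 4 arrays with a colon profile Lif differed by 2.13 and Osm by 0.80. Between the other 2, where both were under log2 4, the differences were 0.57 and 0.85.

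The upstream sequence of Il6 is shown because Il6 was highest on deficient replicates 2 and 1. Il11, Lif, Osm, Il6st, Osmr and Stat3 were highest on the same arrays, so this order is not particular to the genes shown here. The Il6 sequence is the RefSeq window of 250 bases before the annotated start, GRCm38.p6, chr5:30012864-30013113, plus strand. Capitals mark TGANTCA, the AP-1 motif, and GGGNNNNNCC, a loose NF-kappaB motif, searched on both strands. A pair of NF-kappaB matches overlaps each other in the last capital run.
Il6: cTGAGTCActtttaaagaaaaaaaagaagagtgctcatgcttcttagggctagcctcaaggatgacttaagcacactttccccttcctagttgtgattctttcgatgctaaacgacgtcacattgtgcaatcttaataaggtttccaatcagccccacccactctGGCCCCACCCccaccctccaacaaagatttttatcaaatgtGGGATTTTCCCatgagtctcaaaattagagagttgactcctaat
The AP-1 letters also occurred once in the window of Lif (chr11:4257318-4257567, plus strand) and once in 1 of 2 windows of Il11 (chr7:4778142-4778391, minus strand). That Il11 window lies inside the annotated span of the gene (chr7:4772373-4782907). The other Il11 window, chr7:4782858-4783107 at the upstream end of that span, did not hold the letters. These stretches of 30 bases hold the match in capitals.
Il11: caggagggagggTGAGTCAggatgtgtcag
Lif: cccagtcagctgTGACTCAggccatagtgg
Windows were at hand for 9 of the 10 genes, 11 windows in all. TGANTCA was in 3 of the 11, from Il6, Il11 and Lif, and in 6.75% of all 32851 windows. The windows of Il6st, Osmr and Stat3, which were also highest on deficient replicates 2 and 1, did not hold it. GGGNNNNNCC was found in 6 of the 11 windows, from 6 of the 9 genes, and in 45.8% of all windows. These motifs were chosen after the sequences had been read, and a match is a description of letters, not of a bound site.

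Among the receptors, Osmr and Il6st shared the order of Il6 and Il11 on the highest arrays, while Il6ra did not. Osmr, the chain that pairs with gp130 to bind oncostatin M, read 8.78, 9.69 and 6.63 in deficient samples, against 6.49, 6.82 and 7.51 in control samples. Deficient replicates 1 and 2 lay above every control, and deficient replicate 3 lay among the controls. The means were 8.37 ± 1.57 and 6.94 ± 0.52 (deficient and control, SD, n = 3 each), which differ by 1.43 (SE 0.80), or 2.69-fold. The limma adjusted p was 0.719. It differed by 2.07 over the 4 arrays with a colon profile (limma adjusted p 0.271) and by 0.13 between the other 2. Without deficient replicate 2 the difference was 0.76, and without deficient replicate 3 it was 2.30. The 2 other Osmr probe sets stayed between 2.25 and 2.63 on all arrays and carry no information on the gene.

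Il6st encodes gp130, the chain shared by the whole family. Its leading probe set (1452843_at) read 9.53, 10.52 and 7.95 in deficient samples and 7.83, 8.36 and 9.08 in control samples. The groups overlapped, with deficient replicate 3 next to control replicate 1 at the bottom. The difference was 0.91 (SE 0.70, limma adjusted p 0.778), and it was 1.31 over the 4 arrays with a colon profile and 0.12 between the other 2. It was 0.32 without deficient replicate 2 and 1.60 without deficient replicate 3. Its other probe sets did not all show this. Probe set 1460295_s_at differed by 0.96, whereas 1437303_at differed by 0.06 and was highest on control replicate 2, at 8.49. The fourth, 1421239_at, lay between 2.49 and 2.70 throughout. The spread among probe sets leaves the size for Il6st uncertain.

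Il6ra, the receptor chain specific to Il6 and found mainly on leukocytes and hepatocytes, was the one tested gene of the family with a lower mean in deficient samples. It read 6.16, 6.14 and 5.09 in deficient samples, against 5.70, 6.14 and 6.32 in control samples. Every deficient value except that of replicate 3 lay inside the control range. The difference was -0.26 with a 95% confidence interval from -1.13 to 0.62 (limma adjusted p 0.879), an interval that leaves room for changes in either direction. It was -0.08 over the 4 arrays with a colon profile and -0.61 between the other 2, and without deficient replicate 3 it was 0.10. Deficient replicate 2 and control replicate 2 held the identical Il6ra value, 6.13695, a tie like that of Osm on control replicates 2 and 3. Why these values tie was not tested. Il6, Osmr and Il6st were each at their highest on deficient replicate 2. The second Il6ra probe set lay under log2 4 on all arrays.

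Stat3, the transcription factor that carries the signal, had small but separate groups on its leading probe set (1460700_at). It read 10.23, 10.64 and 9.92 in deficient samples, against 9.67, 9.86 and 9.61 in control samples. Deficient replicate 3 lay just above control replicate 2, and the groups did not overlap. The difference was 0.55, or 1.46-fold (SE 0.23, limma unadjusted p 0.0535, adjusted p 0.672). A second bright probe set, 1426587_a_at, differed by 0.46, but its groups overlapped, with control replicate 3 at 9.88 above deficient replicate 3 at 9.58. Probe set 1459961_a_at differed by 0.42 at levels of 4.05 to 5.21, and the fourth lay between 2.27 and 2.43. Over the 4 arrays with a colon profile Stat3 differed by 0.70, and between the other 2 by 0.24. Without deficient replicate 2 it differed by 0.36.

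Socs3, the feedback inhibitor that STAT3 induces, showed separate groups on every probe set. Its leading probe set (1455899_x_at) read 10.91, 12.40 and 12.48 in deficient samples, against 8.84, 9.79 and 10.25 in control samples. Probe set 1456212_x_at read 10.29, 11.53 and 12.00 in deficient samples, against 8.29, 8.44 and 9.52 in control samples. Probe set 1416576_at, which lacks the suffix that warns of cross-hybridisation, read 8.14, 9.50 and 9.68 in deficient samples, against 6.14, 6.75 and 7.09 in control samples. On all 3 probe sets deficient replicate 3 was highest and control replicate 1 lowest, and these are the 2 arrays with small intestine genes. The means of the leading probe set were 11.93 ± 0.89 in deficient and 9.63 ± 0.72 in control samples (SD, n = 3 each), which differ by 2.30 (SE 0.56), or 4.93-fold. The limma unadjusted p was 0.00668 and the adjusted p 0.659, so Socs3 was not called. The other probe sets differed by 2.52 and 2.45. With array weights in the fit, the leading one differed by 1.11.

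Over the 4 arrays with a colon profile Socs3 differed by 1.63 (limma adjusted p 0.344), and between the other 2 by 3.64. Deficient replicate 3 combined the highest Socs3 of the series with Il6 and Il11 under log2 4 and Osmr among the control values. On deficient replicate 2, Socs3 was as high, at 12.40, with Il6, Il11, Lif, Osm, Il6st, Osmr and Stat3 all at their own maximum. Whether the genotype difference in Socs3 depends on the tissue profile was not tested.

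The Socs3 window was the only one among the 9 genes with the STAT motif TTCNNNGAA, which 7.02% of all windows held. The stretch of 30 bases with the match in capitals comes from the RefSeq window on GRCm38.p6, chr11:117969367-117969616, minus strand, and lies 154 to 146 bases before the start used there.
Socs3: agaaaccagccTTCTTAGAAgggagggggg
The whole window, with the match, lies within the annotated span of Socs3 (chr11:117966079-117970336), which extends further upstream. No match in the other windows says only that these letters are not in those 250 bases.

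**Figure D1:**
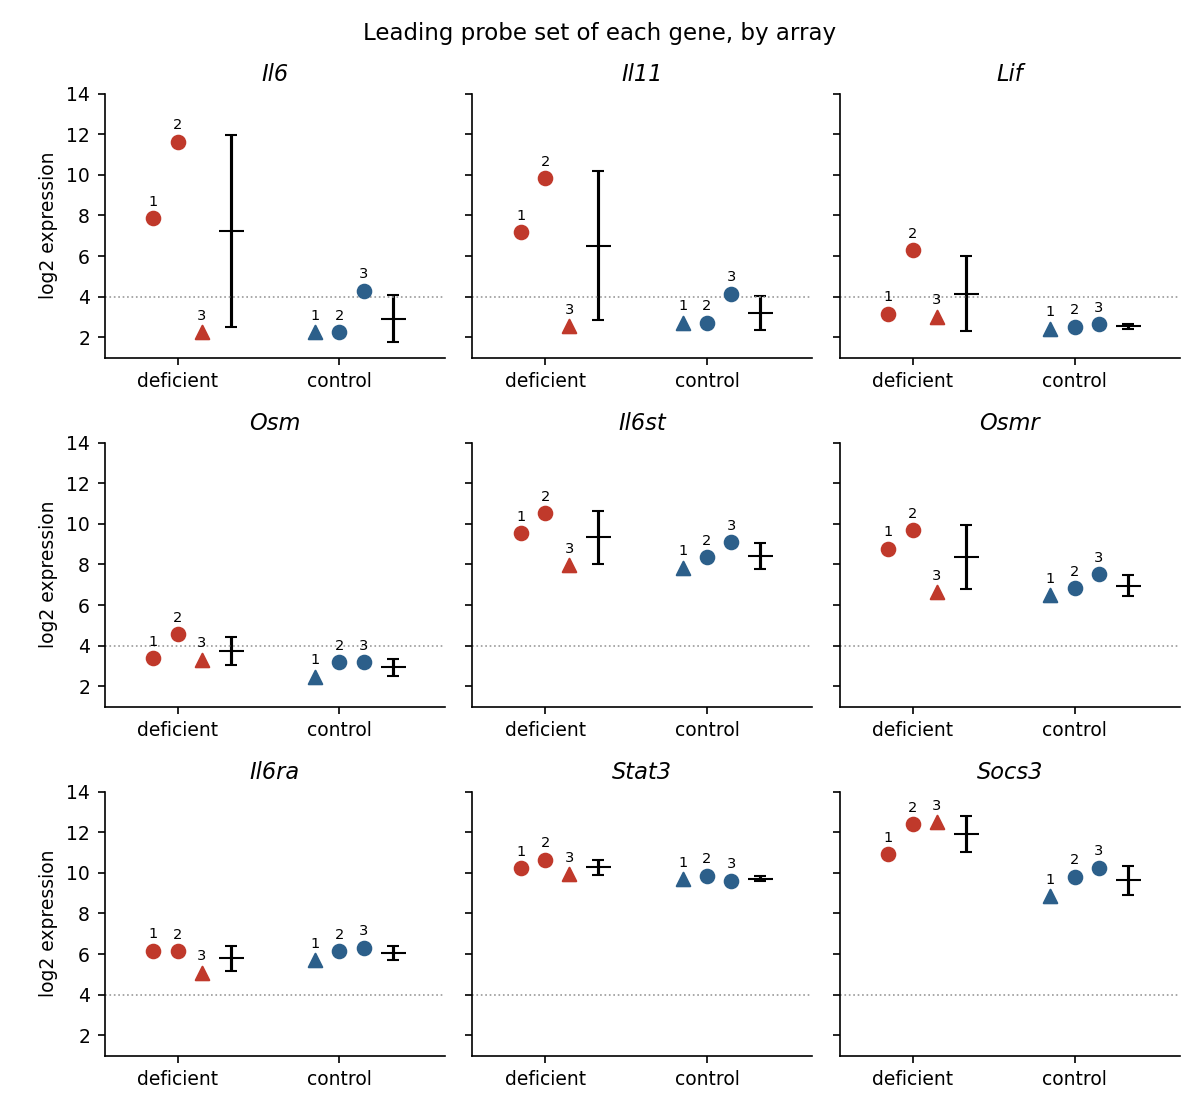
Log2 expression of the leading probe set of 9 genes, with 3 deficient arrays (red) left of 3 control arrays (blue), numbered by replicate, and black bars for mean ± SD. Triangles are the 2 arrays with small intestine genes, and the dotted line is log2 4. Il6 and Il11 are high on deficient replicates 1 and 2 only, whereas all 3 deficient Socs3 values, 10.91 to 12.48, lie above the controls.

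Across the family, 6 of the 7 tested genes had a higher mean in deficient samples, where 57.1% of all genes did. The median log2 difference was 1.43 over the 7 genes and 0.06 over all 10491. With the filter at log2 6, which drops Il6 and Il11, 4 of 5 family genes had a higher mean. Their median was 0.91, against 0.06 over all genes past that filter. None of the 7 passed an adjusted p under 0.05, and neither did any other gene (0%). At an unadjusted limma p under 0.05 there were 783 genes in all, with 5.10% of genes higher and 2.36% lower, and Socs3 was the 1 family member among them. Groups did not overlap for Socs3 and Stat3, 2 of 7, where 9.36% of all genes had every deficient value above every control value.

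Within the groups, single arrays stood apart. Deficient replicate 2 was the highest of the 6 arrays for 5 of the 7 tested genes, as it was for 28.9% of all genes. For Il6, Il11, Il6st and Osmr the 3 highest arrays were, in order, deficient replicate 2, deficient replicate 1 and control replicate 3. This order, singled out after the values were seen, held for 4.78% of all genes. Il6 and Il11 passed the filter only through these 3 arrays, so the filter favoured their part in the counts given here. Among the 4 arrays with a colon profile, both deficient values exceeded both control values in 6 of the 7 genes, all but Il6ra, and in 30.5% of all genes. The 7-gene median was 1.63 over those 4 arrays and 0.12 between the 2 with small intestine genes, against 0.08 and 0.0034 for all genes. Of the 7, Il6 and Il11 were under log2 4 on both arrays with small intestine genes. In the fit of 4 arrays the adjusted p of the 7 genes ran from 0.271 to 0.866, and 0% of genes were called.

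**Figure D2:**
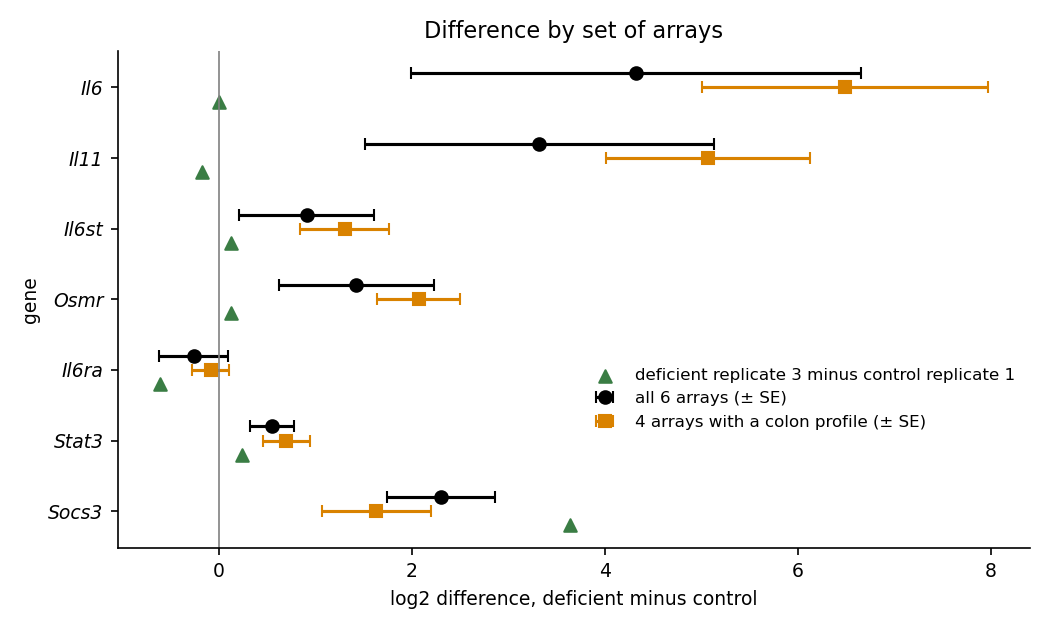
Log2 difference, deficient minus control, of the 7 tested genes over all 6 arrays (black circles, ± SE), over the 4 arrays with a colon profile (orange squares, ± SE) and between the 2 arrays with small intestine genes (green triangles, 1 array a group, no error). Il6 and Il11 differ by 6.49 and 5.07 over the 4 arrays and are under log2 4 on the 2 others, so that their triangles near 0 are set by the floor. Socs3 differs by 1.63 over the 4 and by 3.64 between the 2.

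Neutrophil markers were highest on the same arrays as Il6. The summed level of 9 neutrophil markers with a probe set (of 10 listed), as log2 of the sum, was 8.27 to 13.18 in deficient samples and 6.20 to 9.45 in control samples. Its 3 highest arrays were the same as for Il6 and in the same order, at 13.18 on deficient replicate 2, 11.33 on deficient replicate 1 and 9.45 on control replicate 3. S100a8 and S100a9 made up most of this sum on deficient replicate 2, each at 12.06 there, and monocytes express both. S100a8, a calprotectin subunit of neutrophils and inflammatory monocytes, was at 10.26, 12.06 and 7.03 in deficient samples and at 4.31, 4.55 and 8.30 in control samples. Of the neutrophil markers 3 entered the test, all with higher deficient means and a median difference of 4.06. That median was 4.73 over the 4 arrays with a colon profile and 2.71 between the other 2. Il1r2, 1 of the 3, was at 6.58, 9.28 and 4.55 in deficient samples and at 3.28, 3.51 and 3.64 in control samples. It passed the filter through the deficient arrays alone, so the filter favoured its part in this count. The granule genes Ngp, Camp and Mpo and the receptor Cxcr2 were under log2 4 on all arrays.

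The 10 macrophage and monocyte markers summed to 11.84 to 12.96 in deficient and 11.26 to 11.80 in control samples, without overlap, and 8 of 10 had a higher deficient mean. Their highest arrays were deficient replicates 2, 1 and 3, and their median difference was 1.42 over the 4 arrays with a colon profile and 0.69 between the other 2. The markers with a higher mean included Ly86, by 1.20, Aif1, by 1.50, and Msr1, by 2.20, each with a limma adjusted p of 0.659. Csf1r and Adgre1 differed by 0.64 and 0.24, with overlapping groups. The 2 with a lower mean were Mertk, at -0.77, and Cx3cr1, at -0.31. For Cx3cr1 every deficient value was below every control value, as in 4.15% of all genes. The 8 fibroblast markers all had a higher deficient mean, with a median of 0.50, and all 8 were highest on deficient replicate 2. Their sum was 14.67 to 15.96 in deficient and 13.95 to 15.14 in control samples. The 6 T cell markers summed to 6.27 to 6.74 in deficient and 6.39 to 7.75 in control samples, highest on control replicate 1 and lowest on deficient replicate 2. Of these 6, 2 entered the test and 2 were under log2 4 on all arrays, so values near the floor make up part of the sum. The 6 epithelial markers summed to 16.24 to 16.33 in deficient and 16.19 to 16.53 in control samples, and 5 of the 6 had a lower deficient mean, with a median of -0.04. The part of leukocytes or stroma in the levels of Il6, Il11, Osmr and Il6st was not tested.

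**Figure D3:**
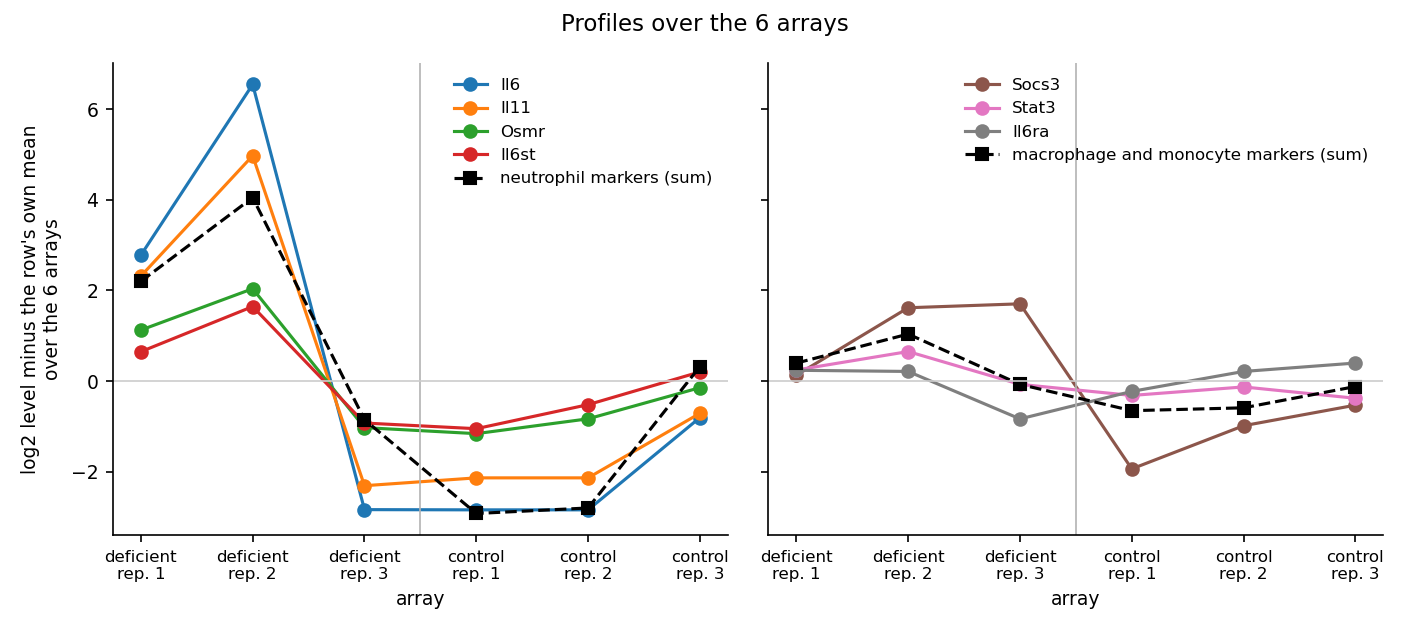
Level of each gene on the 6 arrays, minus the mean of that gene over the 6 (log2), with deficient arrays left of the line and control arrays right of it. Dashed lines are summed leukocyte markers, and lines only join the points of 1 gene or list. Il6, Il11, Osmr and Il6st peak with the neutrophil sum on deficient replicate 2, at 13.18 for that sum, while Socs3 stays high on deficient replicate 3.

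Genes that STAT3 is known to drive were mostly higher in deficient samples, though none was called. All 20 listed targets were tested, 17 had a higher and 3 a lower mean, and their median difference was 0.83, against 0.06 over all genes. At an unadjusted limma p under 0.05, 6 of 20 were higher and 0 lower, with 5.10% and 2.36% of all genes as background. Groups were separate for 6 of 20, each higher in deficient samples, against 9.36% of all genes. Hif1a, the hypoxia factor, read 10.72, 11.82 and 10.11 in deficient samples and 8.88, 8.64 and 9.32 in control samples, a difference of 1.94 (limma adjusted p 0.659), with 2.29 over the 4 arrays with a colon profile and 1.23 between the other 2. Il4ra, the interleukin 4 receptor, differed by 0.63, and Junb, an AP-1 subunit, by 1.19, with the same adjusted p. The median over the targets was 0.85 on the 4 arrays with a colon profile and 0.76 between the other 2.

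The targets with the greatest mean differences were acute-phase and matrix genes, named after their values were seen. Saa3, a serum amyloid A, differed by 3.73, Lcn2 by 3.59 and Timp1 by 3.45. Lcn2, which withholds iron from bacteria, read 10.29, 11.95 and 7.08 in deficient samples, against 5.80, 5.52 and 7.22 in control samples. Timp1, an inhibitor of metalloproteinases, read 9.49, 11.26 and 4.61 in deficient samples, against 3.69, 4.83 and 6.50 in control samples. In all 3, deficient replicates 1 and 2 exceeded every control and deficient replicate 3 did not, as with Il6. Reg3b and Reg3g, antimicrobial lectins that gut epithelium makes under STAT3, ran otherwise. On deficient replicate 2, where Il6 was highest, they were at their lowest, 12.76 and 10.57, against 15.08 to 15.21 and 12.54 to 14.57 in control samples. On deficient replicates 1 and 3, Reg3b was at 15.33 and 15.63, above every control, and Reg3g at 14.49 and 15.45. The groups overlapped, with mean differences of -0.60 for Reg3b and 0.06 for Reg3g.

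**Figure D4:**
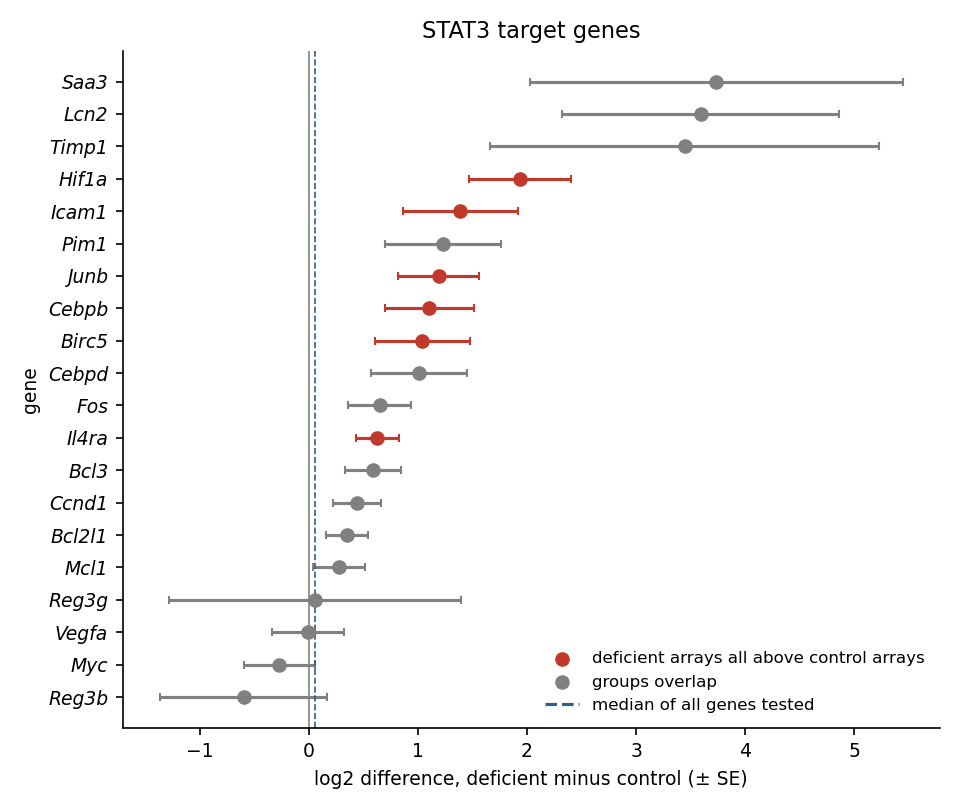
Log2 difference, deficient minus control (± SE), of the 20 listed STAT3 target genes, ordered by size, with the median of all tested genes, 0.06, as a dashed line. Red points mark the 6 genes whose deficient values all exceed the control values, and 17 of the 20 points lie right of 0.

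The remaining machinery of the pathway showed no common direction. Of 14 kinases, other STATs, phosphatases, sheddases and inhibitors, 12 were tested, 7 with a higher and 5 with a lower deficient mean and a median of 0.02. Socs2, a relative of Socs3 that restrains growth hormone signalling, ran opposite to Socs3. It read 9.84, 9.38 and 10.43 in deficient samples, against 11.15, 10.79 and 10.96 in control samples, with every deficient value lower, as in 4.15% of all genes. Its difference was -1.08 (SE 0.30, limma adjusted p 0.659), and it was -1.27 over the 4 arrays with a colon profile and -0.72 between the other 2. Adam10, a protease that sheds the Il6 receptor, differed by 0.41 with separate groups, and the kinase Tyk2 by -0.34 with overlapping ones. Jak1 and Jak2, the main kinases of gp130, differed by 0.04 and -0.08.

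Few other members of the family were measurable. Of 7 further ligands 4 had a probe set and 1 was tested, Ebi3, a secreted cytokine subunit, which differed by 0.51 (limma adjusted p 0.742). Of 5 further receptors 4 had one and 1 was tested, Lifr, the receptor of Lif, at 6.86 ± 0.24 in deficient and 6.57 ± 0.19 in control samples (SD, n = 3 each; limma adjusted p 0.753). Among 8 other cytokines and receptors that act through STAT3, Il10rb and Il22ra1 were tested, and each differed by -0.11. Csf3, the neutrophil growth factor, named after its values were seen, was at 6.16 on deficient replicate 2 and between 2.44 and 2.59 on the others, much as Lif was.

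The genes with profiles most like Socs3 over the 6 arrays were Rgs4, Itga6, Car4, Rab8b and Recql, with Pearson correlations of 0.97 to 0.99 among 10490 genes searched. Those most like Stat3 were Galns, Adat2, Wdr3, Ptpn1 and Nucks1, with correlations of 0.987 to 0.995. With 6 arrays that differ in tissue profile and share 1 summarisation, such values describe likeness only.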

How the data were processed

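RNA from 3 deficient and 3 control colons was measured on Affymetrix mouse genome arrays, 1 mouse an array. The authors made the deposited log2 expression values with GCRMA, per the submitters' processing notes, with no version or settings stated there. GCRMA subtracts background modelled on probe sequence, so low values pile up, many at 2.25, and differences there are compressed. Some probe sets repeated a higher value of their own. Il11 was at 2.72 on control replicates 1 and 2, and Osm at 3.17 on control replicates 2 and 3. The T cell marker Cd3g was at 4.51 on deficient replicates 1 and 3 and control replicates 2 and 3, above the log2 4 filter. The table held 45101 probe sets, of which 34958 named 1 gene, 932 several and 9211 none in the platform annotation. Each gene was represented by its brightest probe set among those above log2 4 on at least 3 of 6 arrays.

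The genotype test used limma 3.58.1 under R 4.3.3 (lmFit, eBayes, two-sided, deficient minus control, no covariate) with Benjamini-Hochberg adjustment over 10491 genes and a threshold of 0.05. On simulated data of that size, the test found 0% of genes shifted by 1 on the log2 scale (0 false calls), 60.0% of those shifted by 2 (7 false calls) and 89.0% of those shifted by 4 (8 false calls). The simulation shifted 200 genes and drew normal noise for each gene and array on its own. In the real arrays genes vary together with the tissue profile, so these rates need not hold for them. The number of arrays, 3 a group, limits the precision. Genes, lists and alternatives were chosen with earlier results of these data known, and lists were described, not tested. Named genes were all members, the 3 smallest p of each pathway list, context genes for tissue and genotype, and the 5 profiles most like Socs3 and Stat3. Cell type markers were named where they define their list. Saa3, Lcn2, Timp1, Reg3b, Reg3g, Jak1, Jak2 and Csf3 fall outside this rule and were named after their values were seen. Cell type lists were used only to describe the arrays. Median differences not given above were 0.10 for smooth muscle, 0.23 for endothelial, 0.55 for colonocyte, -0.81 for small intestine enterocyte and -0.45 for T cell markers. Sequences came from RefSeq tables on GRCm38.p6. Alternatives covered filters, normalization, probe set choice, eBayes options, array weights, a floor, blocks and leaving out arrays.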

Additional observations from a re-analysis of the deposited data

How the results depend on the processing

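No family gene passed an adjusted p under 0.05 in any of 19 alternatives, and the median difference over the tested members stayed positive, from 0.76 without deficient replicate 2 to 2.03 without deficient replicate 3. Leaving out 1 array at a time, 0 genes were called in each limma fit (431 to 1191 at an unadjusted p under 0.05) and 0 members. Over the whole table, 1 gene, Uqcr10, was called without suffixed probe sets and 1, again Uqcr10, when every kept probe set was tested on its own, while array weights called 2, Bhmt2 and Pla2g5. The cause was not tested. Il6ra changed sign once, at 0.10 without deficient replicate 3, and leaving out 1 array at a time ran from -0.44 to 0.10. The others kept theirs, with ranges over all alternatives of 2.13 to 6.83 for Il6, 1.67 to 5.31 for Il11, 0.32 to 1.60 for Il6st, 0.76 to 2.30 for Osmr, 0.36 to 0.72 for Stat3 and 1.11 to 2.81 for Socs3, whose lowest value came with array weights. The filter at log2 6 left no value for Il6 and Il11. Replicate numbers were not used to pair the samples in the main fit, as the labels do not say that they do. Deviations of same-numbered arrays correlated at -0.52, 0.36 and -0.58. The small intestine genes on deficient replicate 3 and control replicate 1 enter these values, so they cannot decide whether samples were paired. With the replicate block 0 genes and 0 members were called, the Socs3 difference stayed at 2.30 (limma adjusted p 0.893), and the median at 1.43. GCRMA levels near 2.25 limit what can be said of Lif, Osm and the lower values of Il6 and Il11.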
